A study of Danio rerio with 6 samples.

Results

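The transcripts described here are those of the pituitary hormones of the zebrafish, together with pou1f1, a transcription factor of the hormone-producing cells, measured in 6 brain samples. 10 genes were listed, and 9 of them had a row in the expression table that named that gene alone, out of 19260 genes measured; lhb was not analysed here. The members were chosen by their expression values in these same arrays, which earlier results had shown to differ strongly between single fish, so that variation is described below and is not tested.

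The study compared the brains of adult zebrafish (Danio rerio) of the Tübingen strain, about 1 year old and of unspecified sex. 3 fish were held for 3 h in water whose dissolved oxygen had been lowered with nitrogen to 1.20 ± 0.6 mg/l (hypoxia 1 to 3), and the other 3 stayed in water with an ambient level of 6.6 ± 0.45 mg/l (normoxia 1 to 3). What kind of error these oxygen levels carry is not stated in the labels. The fish were killed by cold shock, and RNA from each brain was hybridised to an Affymetrix Zebrafish Gene 1.0 ST array of its own, so n = 3 fish per group. Values are on a log2 scale, on which a difference of 1 is a doubling, and over all rows they ran from 1.62 to 14.34, with array medians over genes between 7.32 and 7.60. The labels describe brains and say nothing of the pituitary.

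The pituitary hangs below the hypothalamus and releases peptide and glycoprotein hormones that govern growth, salt balance, stress, metabolism, colour and reproduction. In teleost fish its cell types lie in zones: lactotropes and corticotropes in the rostral pars distalis, somatotropes, thyrotropes and gonadotropes in the proximal pars distalis, and melanotropes and somatolactin cells in the pars intermedia. Somatotropes, lactotropes and thyrotropes of zebrafish depend on pou1f1 (Pit1), whereas gonadotropes and the cells that make pro-opiomelanocortin do not. In bulk RNA, fewer cells of a type and less RNA per cell cannot be told apart.

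Hypoxia 3 and normoxia 3 had the highest values of all 9 transcripts. In 6 of them (gh1, prl, smtla, smtlb, cga and pomca) both fish lay above the other 4 by at least 2 log2 units. Among all 19260 genes measured, 585 (3.04%) had their highest values in the same pair of fish, 14 (0.0727%) by at least 1 log2 unit and 9 (0.0467%) by at least 2. The members are included in these counts. Without them, 8 genes had a gap of at least 1 log2 unit and 3 of at least 2. Because the members were chosen for their variation between fish, nothing is read from these counts. The pair consists of 1 fish from each oxygen group, so the spread lies inside the groups and the groups overlapped for every member.

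**Figure D1:**
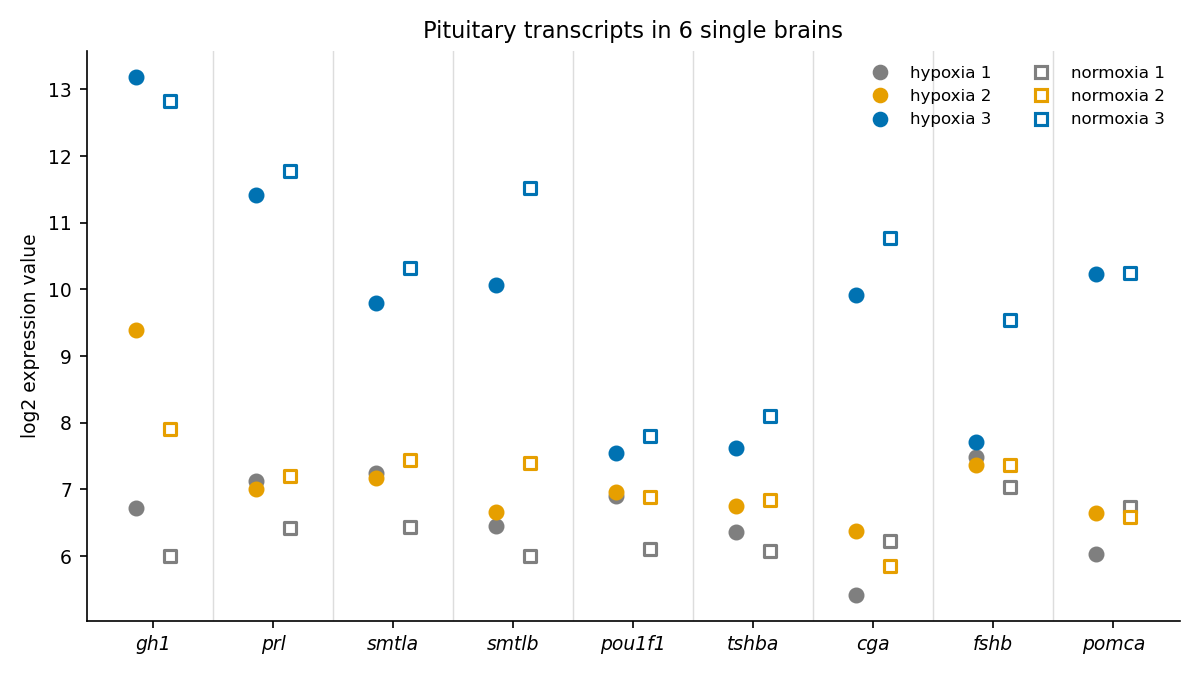
Log2 expression values (vertical axis) of the 9 measured pituitary transcripts (horizontal axis) in each fish; filled circles are the 3 hypoxia fish, open squares the 3 normoxia fish, and colours give the replicate number. The values of hypoxia 3 and normoxia 3 lie above the other 4 for each transcript, by 4.22 log2 units for prl and by 0.23 for fshb.

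Growth hormone and prolactin, which are related hormones, had the largest SDs over the 6 arrays among the members (3.07 and 2.42). gh1, the growth hormone of the somatotropes, had log2 values of 6.72, 9.39 and 13.19 in hypoxia 1 to 3 and of 6.00, 7.90 and 12.83 in normoxia 1 to 3. Its highest and lowest fish were 7.19 log2 units apart, which is 146-fold, and its SD ranked 1 among all genes. The members were chosen for such variation, so this rank is no separate result. The fish did not fall into only a high and a low class for gh1, since hypoxia 2 and normoxia 2 stood between. prl, the prolactin of the lactotropes and the main freshwater-adapting hormone of fish, had log2 values of 7.13, 7.01 and 11.42 in hypoxia and of 6.42, 7.20 and 11.77 in normoxia. For prl there was no such step: 4 fish lay within 0.78 log2 units of each other, and the next fish up was 4.22 log2 units higher, or 18.6-fold. Hypoxia 2, with a gh1 value 2.67 log2 units above that of hypoxia 1, had a prl value 0.12 log2 units below it.

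The somatolactins are hormones of the same family that occur in fish and are made in the pars intermedia. smtla had log2 values of 7.24, 7.17 and 9.79 in hypoxia and of 6.43, 7.44 and 10.32 in normoxia. smtlb had log2 values of 6.45, 6.66 and 10.07 in hypoxia and of 6.00, 7.39 and 11.52 in normoxia. Both showed the same order of the 3 normoxia fish, with normoxia 1 lowest, as did gh1, prl, pou1f1, tshba and fshb. smtlb ranged more widely, over 5.52 log2 units (45.9-fold) against 3.89 (14.8-fold) for smtla. Between the highest fish, smtlb was 1.45 log2 units higher in normoxia 3 than in hypoxia 3 and smtla 0.53 higher.

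pou1f1, the POU homeodomain factor of the somatotrope, lactotrope and thyrotrope lineages, varied in the same direction over a much smaller span. Its log2 values were 6.90, 6.96 and 7.55 in hypoxia and 6.10, 6.89 and 7.80 in normoxia. The fish with the highest hormone values were again the highest, but by 0.59 log2 units (1.51-fold), and normoxia 1 stood apart below the others. Its SD over 6 arrays (0.59) ranked 932 of 19260 genes, against a median SD of 0.28. Leaving out normoxia 1 reduced its range from 1.70 to 0.91 log2 units.

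The glycoprotein hormones share the alpha subunit encoded by cga and differ in their beta subunits. cga had log2 values of 5.42, 6.37 and 9.91 in hypoxia and of 6.22, 5.85 and 10.77 in normoxia, a range of 5.35 log2 units (40.8-fold). Its lowest fish was hypoxia 1, and the gap between the high pair and the rest was 3.54 log2 units. tshba, the beta subunit of thyrotropin, had log2 values of 6.36, 6.75 and 7.62 in hypoxia and of 6.07, 6.84 and 8.10 in normoxia, with a gap of 0.78 log2 units. fshb, the beta subunit of follicle-stimulating hormone, had log2 values of 7.48, 7.37 and 7.71 in hypoxia and of 7.04, 7.37 and 9.54 in normoxia. For fshb it was normoxia 3 alone that stood apart: hypoxia 3 exceeded the highest of the other 4 fish by 0.23 log2 units, and without normoxia 3 the range of fshb went from 2.50 to 0.67 log2 units. The beta subunits analysed here, which leave out lhb, thus spanned 2.03 (tshba) and 2.50 (fshb) log2 units where the shared alpha subunit spanned 5.35. Each gene rests on 1 row and no detection calls were used, so the part of probe response in these unlike spans was not tested.

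pomca encodes pro-opiomelanocortin, the precursor of corticotropin in corticotropes and of melanocyte-stimulating hormone in melanotropes, which the array cannot separate. Its log2 values were 6.03, 6.65 and 10.23 in hypoxia and 6.74, 6.58 and 10.24 in normoxia. The high fish of the groups differed by 0.01 log2 units, and the remaining 4 fish lay within 0.71 log2 units of each other, 3.49 log2 units (11.2-fold) below. The second zebrafish copy of the gene, pomcb, is described with the other hormone genes below.

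Between the high fish themselves the hormones did not scale together. Normoxia 3 had the higher log2 value in 8 of 9 members, by 0.01 for pomca, 0.25 for pou1f1, 0.35 for prl, 0.48 for tshba, 0.86 for cga, 1.45 for smtlb and 1.83 for fshb, while gh1 was lower by 0.36 (-0.36). Over all genes the difference between these arrays had a median of 0.01 log2 units and its middle 95% ran from -0.67 to 0.93. The values of smtlb (2.73-fold) and fshb (3.56-fold) lay above that span. The members were chosen for their variation between fish, so this position is description only. With 1 such fish per group, these differences have no replicate.

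Among the other fish, gh1 varied most of the 9 members. Hypoxia 2 exceeded hypoxia 1 by 2.67 log2 units of gh1 (6.36-fold) and normoxia 2 exceeded normoxia 1 by 1.90 (3.73-fold). Without hypoxia 3 and normoxia 3, an alternative chosen after seeing the data, the range of gh1 was 3.39 log2 units (10.5-fold), and its SD of 1.48 ranked 19 of 19260 genes, whose median SD over those 4 arrays was 0.30. The ranges of the other 8 members over those fish lay between 0.44 log2 units for fshb and 1.39 for smtlb, and their SDs between ranks 1624 (smtlb) and 14752 (fshb). Besides gh1, the members furthest above normoxia 1 in normoxia 2 were smtlb (1.39), smtla (1.01), pou1f1 (0.79), prl (0.78) and tshba (0.77), and those furthest above hypoxia 1 in hypoxia 2 were cga (0.95), pomca (0.62) and tshba (0.39), as log2 differences. The middle 95% of all genes was -1.21 to 1.31 for the normoxia pair and -0.61 to 0.73 for the hypoxia pair, so that gh1 and smtlb in the former and gh1 and cga in the latter lay outside it. The members were chosen for their variation between fish, so these positions and the SD ranks are description only. The arrays differed in their spread of gene values (SD from 1.25 to 1.60). Normoxia 1 had the highest array median over genes (7.60) and held the lowest value of 7 of the 9 members. The part of such array differences in these low values was not tested.

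**Figure D2:**
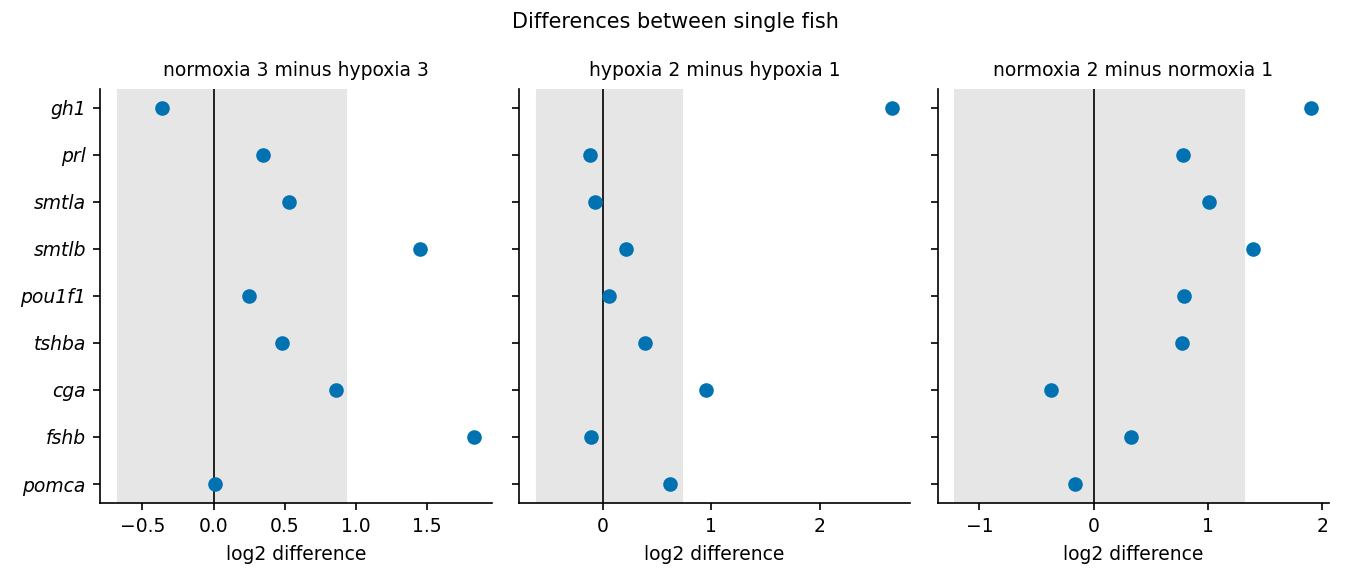
Log2 differences (horizontal axis) of the 9 members (vertical axis) between normoxia 3 and hypoxia 3, between hypoxia 2 and hypoxia 1, and between normoxia 2 and normoxia 1, with the middle 95% of 19260 genes in grey. Outside the grey span lie smtlb and fshb on the left, gh1 and cga in the centre, and gh1 and smtlb on the right. The span is no test, since the members were chosen for their variation between fish.

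Since the fish fell into separate levels for most members, no correlation between members over the 6 fish is given; it would restate the gap between the high pair and the rest, and neither level holds enough fish for a value of its own. By lineage, the members placed the fish in similar but not identical order. prl and smtla had 1 order in common (normoxia 3, hypoxia 3, normoxia 2, hypoxia 1, hypoxia 2, normoxia 1), and smtlb and tshba differed from it only by exchanging hypoxia 1 and hypoxia 2. Only gh1 placed hypoxia 3 above normoxia 3. Hypoxia 2 was above normoxia 2 for gh1, pou1f1, cga and pomca, and level with it for fshb. cga and pomca had normoxia 1 above normoxia 2 and hypoxia 1 lowest, unlike the other 7 members, all of which had normoxia 1 lowest. Many of the steps among the lower fish are small, such as 0.07 log2 units between hypoxia 1 and hypoxia 2 for smtla, and rest on 1 array each. Most values of the lower fish also lay below the array medians over genes (7.32 to 7.6), and no detection calls were used. The part of background signal in their order was not tested, so no covariation by lineage is read from it.

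The comparison the study was designed for is that of oxygen-deprived with control brains. For the pituitary transcripts no difference between hypoxia and normoxia was detected, and the intervals were wide. The members were chosen for their variation between fish, which widens such intervals. That choice favoured the lack of a call, so nothing about oxygen is read from it. Group means of gh1 were 9.77 ± 3.25 in hypoxia and 8.91 ± 3.53 in normoxia (log2 values, mean ± SD, n = 3), a log2 difference of 0.86 with SE 1.84 and a 95% interval from -3.31 to 5.02 (limma adjusted p = 0.911). Those of prl were 8.52 ± 2.51 and 8.46 ± 2.89, a log2 difference of 0.06 (95% interval -3.28 to 3.39, limma adjusted p = 0.996). Those of pomca were 7.64 ± 2.27 and 7.85 ± 2.07, a log2 difference of -0.22 (95% interval -2.90 to 2.46, limma adjusted p = 0.968).

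Of the 9 members 4 had a higher and 5 a lower mean in hypoxia. Their median log2 difference was -0.09, next to -0.08 over all genes. The remaining log2 differences were 0.00333 for smtla, -0.58 for smtlb, 0.21 for pou1f1, -0.09 for tshba, -0.38 for cga and -0.46 for fshb. 0 members passed limma's adjusted threshold of 0.05 (adjusted p from 0.83 to 1.0) and 0 had an unadjusted p under 0.05, in a comparison in which 1 of 19260 genes (0.00519%) passed and 1283 had an unadjusted p under 0.05. The groups did not overlap in 11.3% of all genes and in 0 of the members. For the members this follows from the high pair, which holds a fish of each group, so it is no separate result. The interval was narrowest for pou1f1, from -0.67 to 1.09 log2 units, and widest for gh1. For gh1, prl, smtla, smtlb, cga and pomca a change of several-fold in either direction lay inside it. These intervals and unadjusted p values come from the fit without a block. With the replicate number as a block the SE was smaller for each member, from 0.243 (tshba) to 0.381 (fshb). For gh1 it was 0.267, beside the same log2 difference of 0.86, so the wide interval of gh1 holds only without the block. No member passed the adjusted threshold with the block (lowest limma adjusted p = 0.83, for gh1). Unadjusted p values with the block are not given here. What the replicate number marks is not known.

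The sign of these differences depended on single fish, low as well as high. With normoxia 1 left out the log2 difference turned negative for gh1 (-0.60), prl (-0.96), smtla (-0.81) and pou1f1 (-0.21). The other members kept their negative sign. Normoxia 1 lay below the normoxia mean for all 9 members, so the downward direction of these shifts was fixed. Leaving out the highest fish of a group must lower the mean of that group, so the direction of the following shifts was fixed. Without normoxia 3 the mean was higher in hypoxia for all 9 members, by 2.82 log2 units for gh1, 1.71 for prl and 1.20 for cga, and without hypoxia 3 it was lower for 8 of them, with log2 differences of -1.75 for smtlb, -1.72 for cga and -1.51 for pomca, and equal for pou1f1 (0.00). Leaving out both fish, an alternative chosen after seeing the data, gave 6 members higher in hypoxia, with log2 differences between -0.32 for pomca and 1.1 for gh1. None of these passed (adjusted p from 0.694 to 1.0 without hypoxia 3, 0.975 for each member without normoxia 3, and 0.976 to 0.985 without both).

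**Figure D3:**
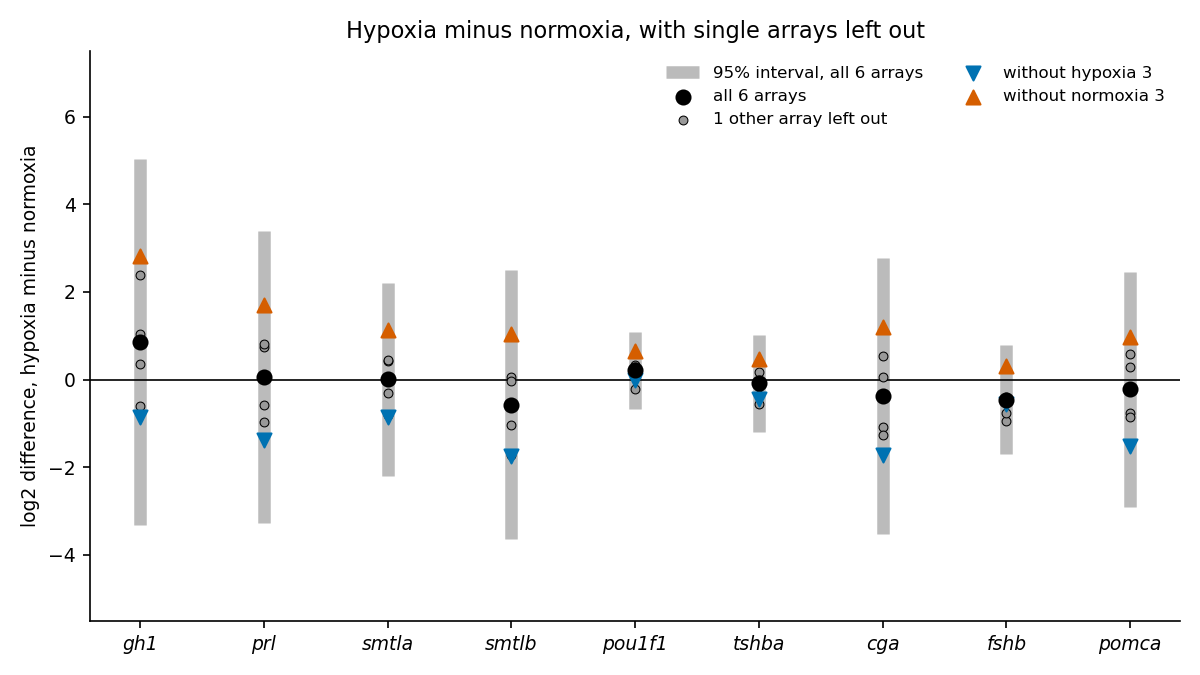
Log2 difference, hypoxia minus normoxia (vertical axis), of each member (horizontal axis) over all 6 arrays (black, with the 95% interval from limma in grey), without hypoxia 3 (downward triangles), without normoxia 3 (upward triangles) and without each of the other arrays (small points). For gh1 the difference is 0.86 over all arrays, -0.85 without hypoxia 3 and 2.82 without normoxia 3.

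The 12 genes outside the members whose values over the 6 arrays were most like the members' mean profile were OTOA, or30by1, trim35-3, tcima, LOC100005864, crabp1a, LOC100005907, fxyd7, anxa1a, si:dkey-81n2.2, si:ch211-119o8.4 and adm2a. The measure of likeness was Pearson's r over 6 arrays, among 1899 genes with an SD of at least 0.5, and it ran from 0.89 for adm2a to 0.99 for OTOA, with no test, since it largely states that the same pair of fish was high. trim35-3, of the tripartite motif family, had log2 values of 2.62, 3.19 and 6.10 in hypoxia and of 2.64, 2.59 and 6.65 in normoxia. LOC100005907, which has no informative name, had log2 values of 5.40, 5.25 and 8.16 in hypoxia and of 5.03, 4.71 and 8.0 in normoxia. or30by1, an odorant receptor gene, had log2 values of 4.40, 4.49 and 6.49 in hypoxia and of 3.92, 4.39 and 7.51 in normoxia. These 3 had gaps of 2.91, 2.60 and 2.0 log2 units between the high pair and the rest, the widest outside the members.

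The remaining 9 had smaller gaps. fxyd7, of a family of small regulators of the sodium-potassium pump, had log2 values of 6.78, 8.36 and 9.68 in hypoxia and of 7.27, 6.85 and 10.03 in normoxia, with hypoxia 2 between the high pair and the rest as for gh1. It was 1 of the 4 genes most like gh1 (r = 0.95), with OTOA, crabp1a and trim35-3. crabp1a, which encodes a retinoic acid binding protein, had log2 values of 8.86, 8.82 and 9.82 in hypoxia and of 8.61, 8.83 and 9.67 in normoxia. Those most like pomca were trim35-3, tcima, si:dkey-81n2.2 and LOC100005907 (r from 0.97 to 0.99), and those most like cga were trim35-3, or30by1, tcima and LOC100005907 (r from 0.96 to 0.99).

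**Figure D4:**
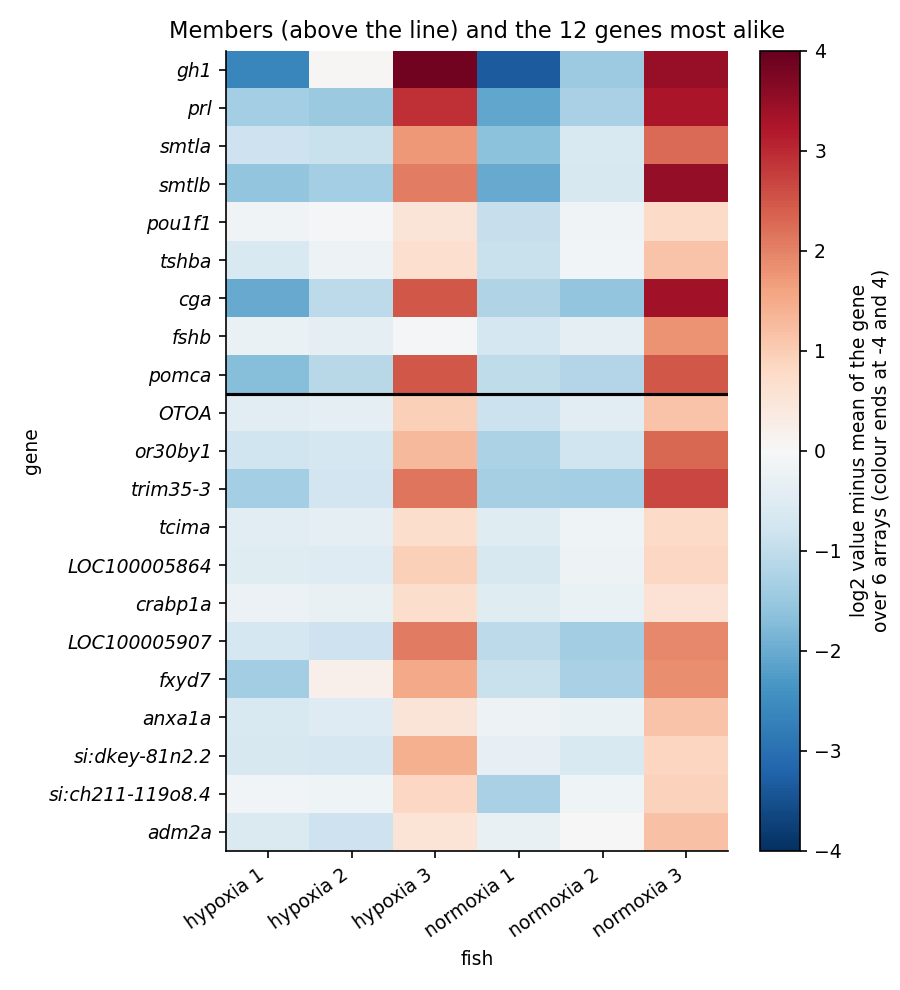
Log2 value minus the mean of the gene over 6 arrays (colour, red above and blue below the mean) for the 9 members above the line and the 12 most similar genes below it, in each of the 6 fish. The columns of hypoxia 3 and normoxia 3 are red in all genes but fshb in hypoxia 3, and gh1 and fxyd7 are near their mean in hypoxia 2.

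Other hormone genes related to the members were also measured, but they are few. Over all genes, 3.04% had both hypoxia 3 and normoxia 3 above the other 4 fish, and the counts for this and the next lists stand beside that share. The lists are short, so nothing is read from their single counts. pomcb, the second pro-opiomelanocortin gene, prl2, the second prolactin gene, and gpha2 and gphb5, the subunits of thyrostimulin, all had at least 1 of the high pair below another fish (0 of 4 with both above the other 4). prl2 had log2 values of 7.34, 7.20 and 7.31 in hypoxia and of 7.96, 6.71 and 6.76 in normoxia, with its highest value in normoxia 1. gpha2 ranged over 1.12 log2 units and was lowest in normoxia 3, at 6.10.

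Of 22 measured transcription factors of the developing and adult pituitary, 3 had both hypoxia 3 and normoxia 3 above the other 4 fish, and none by 1 log2 unit. nr5a1b, a relative of the steroidogenic factor of mammalian gonadotropes, had log2 values of 7.13, 7.35 and 7.72 in hypoxia and of 7.23, 7.60 and 8.56 in normoxia, with normoxia 3 apart. The others were pitx3 (6.91 in hypoxia 3 and 7.34 in normoxia 3, at most 6.79 elsewhere) and tbx19, which in mammals switches on pro-opiomelanocortin (6.78 and 6.62, at most 6.53 elsewhere). pitx3 and tbx19 are named after their values were seen. The gaps between the high pair and the rest were 0.12 log2 units for nr5a1b and pitx3 and 0.09 for tbx19. The median SD of all genes over 6 arrays was 0.28. The remaining factors of the list did not have both fish highest, and no link between a factor and a hormone was tested. The factors with the largest SD besides nr5a1b were ascl1a, a proneural factor, and sox2, a stem cell factor, with ranges of 1.48 and 0.92 log2 units. In normoxia 1 they had 8.39 and 8.43, close to the 8.28 and 8.45 of normoxia 3, and sox2 was at 7.94 in hypoxia 3, below hypoxia 1.

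Of 30 measured receptors for hypothalamic signals and feedback hormones, 1 had both fish highest, close to the share of all genes (3.04%). It was esr2b, an oestrogen receptor gene (7.42 in hypoxia 3 and 7.55 in normoxia 3, at most 7.21 elsewhere, named after its values were seen). The receptors with the largest SD were crhr2, adcyap1r1a and trhrb, of corticotropin-releasing hormone, PACAP and thyrotropin-releasing hormone, whose extremes were in normoxia 1 and normoxia 2. Genes of prohormone processing and secretory granules, which neurons use as well, had both fish highest in 1 of 12 cases. That gene was scg3, which encodes a granule protein, with log2 values of 10.43, 10.81 and 11.68 in hypoxia and of 11.22, 10.62 and 11.73 in normoxia. scg2a and scg5 had their highest values in normoxia 1, 10.71 and 6.64.

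Of the hypothalamic factors that drive or restrain the pituitary, 0 of 21 measured genes had the pattern, beside 3.04% of all genes. oxt, the oxytocin gene, whose product is carried to the pituitary in axons, varied most, with log2 values of 10.71, 13.04 and 12.67 in hypoxia and of 12.76, 11.88 and 12.14 in normoxia. Its lowest fish was hypoxia 1 and its highest hypoxia 2. ghrh, encoding the releasing hormone of growth hormone, ranged over 1.20 log2 units, and sst1.1, encoding somatostatin, which restrains it, over 1.09. Hypothalamic regional factors also showed it in 0 of 10 cases. Among receptors and targets of the pituitary hormones it was found in 2 of 19, dio2 and igf2b (gaps of 0.34 and 0.27 log2 units, named after their values were seen), and the widest range there was that of mc2r, the corticotropin receptor gene, at 2.43 log2 units, with its lowest value of 5.72 in normoxia 1.

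Markers of other tissues that a brain sample could carry were measured beside the members. Neuronal markers were present in every array, with a mean log2 value over 10 genes of 10.55 to 10.96 in hypoxia and of 10.52 to 11.24 in normoxia. Of these, 0 of 10 had hypoxia 3 and normoxia 3 both above the rest, beside 3.04% of all genes. The pineal and photoreceptor genes with the largest SD, exorh and rcvrnb, were high in hypoxia 3 and normoxia 3 and also in hypoxia 1. exorh, the opsin of the pineal gland, had log2 values of 10.75, 6.53 and 10.51 in hypoxia and of 7.08, 7.49 and 10.36 in normoxia, and rcvrnb, a recoverin gene, 10.29, 5.55 and 10.35 against 7.32, 6.77 and 10.03. For exorh and rcvrnb hypoxia 1 was among the high fish, and for the pituitary genes it was among the low fish. The list as a whole was mixed: 3 of 17 genes (gnat1, crx and opn1lw1, named as such after their values were seen) had hypoxia 3 and normoxia 3 above the rest as the hormones did, with gnat1 at 9.34 and 8.93 against 8.42 in hypoxia 1. The mean log2 value of the list was 6.48 to 7.59 in hypoxia and 6.73 to 7.39 in normoxia.

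Lens, blood and muscle markers had 0 of 14, 0 of 7 and 0 of 10 genes with that pattern. Their mean log2 values ran from 5.75 to 6.17 in hypoxia and 5.50 to 6.16 in normoxia for lens, 6.72 to 6.92 and 7.02 to 7.44 for blood, and 6.62 to 6.96 and 6.26 to 7.26 for muscle. The parts that other tissues and the amount of pituitary in each sample play in the hormone values were not tested. In all, 10 of 176 measured genes on these 12 lists (5.68%) had both fish above the rest, beside 3.04% of all genes, and 0 of the 176 passed limma's threshold for hypoxia against normoxia (lowest adjusted p = 0.72).

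**Figure D5:**
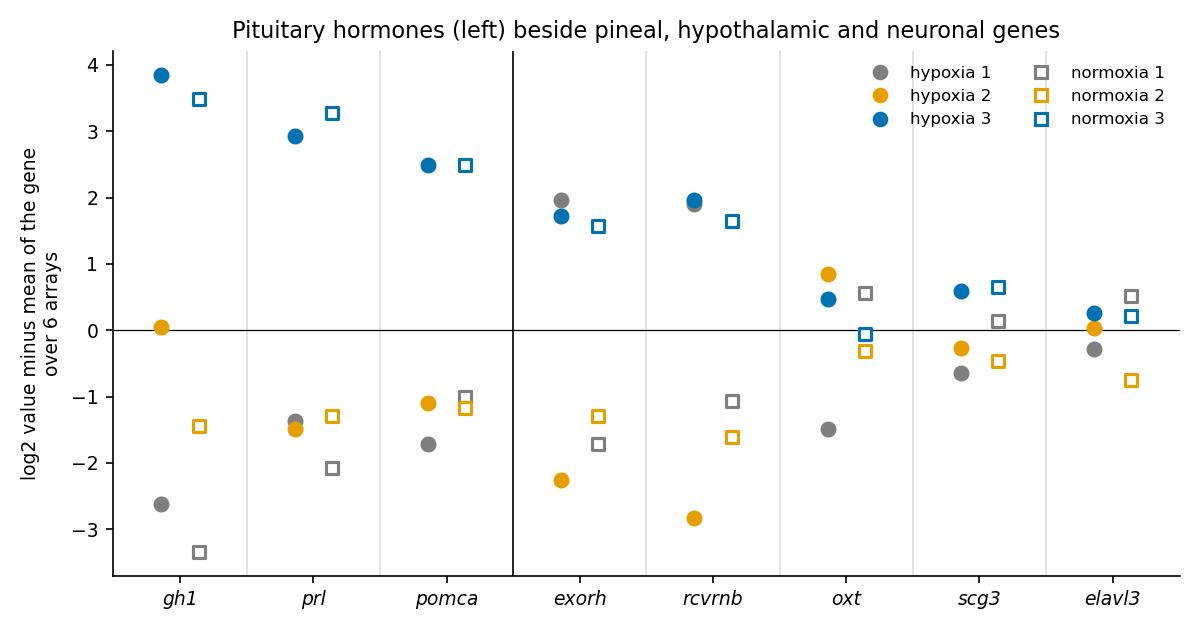
Log2 value minus the mean of the gene over 6 arrays (vertical axis) in each fish for gh1, prl and pomca, left of the dark line, and for the pineal genes exorh and rcvrnb, oxt, scg3 and the neuronal gene elavl3, right of it. The filled grey circle of hypoxia 1 lies with the low fish on the left and with the high fish for exorh and rcvrnb.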

How the data were processed

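Each array held RNA of 1 brain (300 ng, per the labels), and groups came from the sample titles. Per the design text of the series, the authors applied the RMA background step followed by quantile normalization. Affymetrix Expression Console is named in the submitters' processing notes. The medians of the deposited arrays over all rows nevertheless ran from 6.28 to 6.6, so the arrays do not have equal distributions. The deposited values were taken as log2 values, as judged from their range; for probe set level, versions and filters the sources used here give nothing. Of 75212 rows, 20806 named 1 gene, 855 several and 53551 were unnamed here. Rows naming 1 gene were averaged per gene, and each of the 9 members rests on 1 row. Symbols were updated through the Entrez identifier (20323 rows matched, 1 symbol changed). No detection calls were used, so the level at which a transcript is absent is not known, and precision is limited by the number of arrays.

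Hypoxia minus normoxia was fitted over all genes in R 4.3.3 by lmFit and eBayes of limma 3.58.1 (6 arrays, no covariate). Benjamini-Hochberg adjustment was applied, with a threshold of 0.05. The fit was also run on simulated data with known differences and independent noise in each gene. That run checks the estimates only and does not imitate fish that differ in many genes together. Members, gene lists and tests were chosen with earlier results of these data known. Named were all members, the 12 genes with the highest r with the mean member profile, 4 each for gh1, pomca and cga, and up to 3 genes per list with the largest SD. Other settings were each array left out in turn, the replicate number as a block, equal array medians, quantile normalization of gene values, the brightest row, an intensity trend, a mean of at least 6, and leaving out hypoxia 3 and normoxia 3 together. The highest share of rows with equal values in any 2 arrays was 1.14%, so no array was a copy of another.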

Additional observations from a re-analysis of the deposited data

How the results depend on the processing

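No member passed the threshold under any alternative (117 values, lowest limma adjusted p = 0.42). Ranges over the fish moved by at most 0.41 log2 units (smtlb) with equal array medians, gene values quantile-normalized or the brightest row, and relative to its range most for pou1f1 (17.3%) and least for pomca (1.62%). The sign of hypoxia minus normoxia depended on single arrays. With 1 array left out the log2 difference ran from -0.85 to 2.82 for gh1, -1.39 to 1.71 for prl, -0.86 to 1.13 for smtla, -1.75 to 1.03 for smtlb, -0.21 to 0.64 for pou1f1, -0.56 to 0.46 for tshba, -1.72 to 1.20 for cga, -0.94 to 0.32 for fshb and -1.51 to 0.98 for pomca. Without hypoxia 3 and normoxia 3 together it became 0.10 for tshba and 0.22 for fshb, and with equal array medians 0.05 for tshba. The number of genes called, 1 over all arrays, was 0 to 17 with 1 array left out, 2 with gene values quantile-normalized, and 0 with an intensity trend, with a mean of at least 6, or without hypoxia 3 and normoxia 3 together (1300, 1255 and 585 genes at an unadjusted p under 0.05). Without normoxia 2 the 17 were 2 higher and 15 lower, and genes at an unadjusted p under 0.05 went from 1283 to 4747, against 507 without hypoxia 1. The causes of these changes were not tested. The replicate block left 1 gene called and changed no call of a member. Deviations from the group means correlated at -0.34, 0.10 and 0.20 over all genes for replicates 1, 2 and 3. Pairs with unlike numbers ran from -0.47 to 0.42, so these values cannot decide what a shared number marks. Both high fish carry the number 3, and with the block the SE of gh1 was 0.267, against 1.84 without it. Whether the number marks a shared tank, day or batch was not tested.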

Other observations

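Outside the 9 members, 8 genes had hypoxia 3 and normoxia 3 above the other 4 fish by at least 1 log2 unit, and 7 of them were among the 12 genes most like the member profile. The remaining gene was ms4a17a.1, named after its values were seen, with log2 values of 4.17, 4.87 and 6.79 in hypoxia and of 5.15, 2.32 and 6.46 in normoxia. In the 54406 rows naming no gene or more than 1 gene, 37 (0.068%) had this gap of at least 1 log2 unit, and 8 had one of at least 2. Of the genes, 0.0727% had a gap of at least 1, a share that includes the members. Whether these rows belong to genes already named was not tested.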
